A study of Homo sapiens with 27 samples.

Results

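The 10 genes of the YAP and TEAD programme described here were followed through all 27 RNA-seq libraries of the A431 and MDA-MB-231 cell lines. The genes were CCN1, CCN2, ANKRD1, AMOTL2, LATS2, AXL, AJUBA, TEAD1, YAP1 and WWTR1, chosen by symbol and matched by Entrez identifier to 10 of the 24566 rows of the count table. YAP1 and its paralogue TAZ, the product of WWTR1, are transcriptional coactivators that cannot bind DNA on their own and reach their targets through the TEAD factors. The Hippo kinase cascade, which ends in LATS1 and LATS2, phosphorylates them and keeps them out of the nucleus, so their activity is set largely at the protein level, which RNA counts do not measure. CCN1, CCN2 and ANKRD1 are the most widely used transcript readouts of that activity, and AMOTL2 and LATS2 are targets that feed back on it.

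A431 is an epidermoid carcinoma line and MDA-MB-231 a breast adenocarcinoma line. All cells were harvested at 48 h. The agent common to both lines was CKI (Compound Kushen Injection, an aqueous extract of a pair of medicinal herbs) at 1.0 mg/ml, a 1 in 20 dilution. A431 cells were untreated, given a vehicle control, CKI, doxorubicin (a DNA-intercalating topoisomerase poison), or CKI plus doxorubicin. MDA-MB-231 cells were untreated, given CKI, 5-FU (5-fluorouracil, an inhibitor of thymidylate synthesis) at 10 µg/ml, or CKI plus 5-FU. Each of the 9 groups had 3 libraries, described by the submitters as biological replicates. The labels list more than a single doxorubicin dose without assigning it and do not say what the vehicle was. No vehicle group of MDA-MB-231 was analysed here. Comparisons with the untreated group of a line share those 3 libraries.

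The libraries held 17757206 to 21756536 counts in A431 and 19871048 to 22809339 in MDA-MB-231. Line markers matched the labels: KRT5, a basal keratin, was at 1435 to 3851 CPM (read counts scaled to a common library total by the trimmed mean of M values) in A431 and the mesenchymal filament VIM at 722 to 1993 CPM in MDA-MB-231, where CDH1 reached no more than 2.05 CPM. The leukocyte marker PTPRC was at most 1.96 CPM in any library. The summed level of 8 leukocyte, endothelial and fibroblast markers was 47.4 to 51.8 CPM in untreated A431, 33.6 to 39.0 with vehicle, 83.6 to 88.8 with CKI, 51.8 to 57.8 with doxorubicin and 102 to 110.3 with CKI plus doxorubicin, and 17.7 to 41.0 CPM across MDA-MB-231, so it was highest in the A431 groups given CKI. In A431 most of that sum came from VWF, CDH5 and COL1A1, with VWF at a mean of 1.32 CPM in untreated A431 and 30.1 CPM with CKI, while CD3E was at most 0.393 CPM in any library, and their part in the results was not tested. Untreated MDA-MB-231 replicate 1 stood apart from replicates 2 and 3 (chi-square per degree of freedom 58.5 and 67.4, against 2.40 between those). The difference of the A431 vehicle from the untreated group followed GC content across genes (Spearman rho = -0.582).

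Promoter sequences were available from RefSeq (GRCh38.p14) for 8 of the 10 genes, in 12 windows running from 250 bases before to 50 bases after a transcript start. The TEAD recognition motif GGAATG, or CATTCC when read on the other strand, occurred in 7 of these 12 windows, belonging to 7 of the 8 genes, and in 14.0% of all 35116 windows of that length. CCN2 carried 3 copies, at 169, 104 and 95 bases before its start, a number reached by 0.128% of all windows. ANKRD1 carried 2 copies, at 220 and 128 bases before its start, and at least 2 were found in 1.37% of all windows. Single copies lay 69 bases before a start of AMOTL2, 162 before YAP1, 59 before AJUBA, 212 before AXL and 9 after the start of LATS2, while neither WWTR1 window held the letters. A loose form of the AP-1 motif, TGANTCA with any base at its centre, was found in the ANKRD1 window and no other of the 12, against 7.71% of all windows. The match in the ANKRD1 sequence below has T at the centre, where the search did not require C or G. The 250 bases before the start are shown for 3 genes that rose with doxorubicin in A431 and whose windows hold the motif, on the strand of the gene and with the TEAD motif in capitals. They cover chr6:131951373-131951622 for CCN2, chr10:90921088-90921337 for ANKRD1 and chr3:134374448-134374697 for AMOTL2, all on the minus strand.
CCN2: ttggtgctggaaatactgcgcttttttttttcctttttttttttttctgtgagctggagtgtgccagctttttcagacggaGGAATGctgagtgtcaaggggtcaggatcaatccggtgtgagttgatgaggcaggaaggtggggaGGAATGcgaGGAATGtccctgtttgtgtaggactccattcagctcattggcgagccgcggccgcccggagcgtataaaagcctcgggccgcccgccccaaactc
ANKRD1: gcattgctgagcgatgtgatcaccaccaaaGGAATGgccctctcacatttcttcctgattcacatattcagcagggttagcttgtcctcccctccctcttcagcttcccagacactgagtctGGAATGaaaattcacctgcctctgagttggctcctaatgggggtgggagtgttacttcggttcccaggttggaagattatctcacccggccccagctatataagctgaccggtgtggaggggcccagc
AMOTL2: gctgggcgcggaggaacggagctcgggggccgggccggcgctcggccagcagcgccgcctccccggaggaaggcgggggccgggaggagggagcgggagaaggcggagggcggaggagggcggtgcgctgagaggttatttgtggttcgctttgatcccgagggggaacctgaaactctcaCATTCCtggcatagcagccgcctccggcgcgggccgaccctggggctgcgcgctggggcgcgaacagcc

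In GRCh37 (hg19), the build named in the processing notes, the secreted and nuclear readout genes lie with CCN1 at chr1:86046444-86050272 (plus strand, 5 exons), CCN2 at chr6:132269316-132272512 (minus strand, 5 exons) and ANKRD1 at chr10:92671853-92680844 (minus strand, 9 exons). The feedback and junctional genes lie with AMOTL2 at chr3:134074189-134094321 (minus strand, 10 exons), LATS2 at chr13:21547175-21635725 (minus strand, 8 exons) and AJUBA at chr14:23440386-23451760 (minus strand, 8 exons). AXL is at chr19:41725128-41767671 (plus strand, 20 exons). The coactivator and TEAD genes lie with YAP1 at chr11:101981178-102104155 (plus strand, 9 exons), WWTR1 at chr3:149235022-149454501 (minus strand, 7 exons) and TEAD1 at chr11:12695968-12966284 (plus strand, 13 exons). All 10 are protein-coding genes.

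In untreated cells 7 of the 10 genes were lower in A431 than in MDA-MB-231 by the adjusted p and fold limits given below, against 20% of all genes. CCN1, which encodes a secreted matricellular protein, was at 182, 183 and 194 CPM in the 3 untreated A431 libraries and 1444, 1742 and 1664 CPM in MDA-MB-231. CCN2, its paralogue (connective tissue growth factor), was at 3.64, 3.09 and 3.91 CPM in A431 and 528, 541 and 534 CPM in MDA-MB-231. ANKRD1, an ankyrin-repeat cofactor first known from striated muscle, was at 0.417, 0.717 and 1.07 CPM in A431 (7 to 17 counts per library) and 621, 439 and 386 CPM in MDA-MB-231. For all 3 genes every A431 library lay below every MDA-MB-231 library. On the scale of CPM per kilobase of exon, which allows genes to be compared, the untreated A431 means were 81.8 for CCN1, 1.52 for CCN2 and 0.411 for ANKRD1, against 709.6, 229 and 269 in MDA-MB-231.

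A gene was called when edgeR's quasi-likelihood test gave a Benjamini-Hochberg adjusted p below 0.05 over all genes tested and the log2 fold change was above 1 in size, and "rose" and "fell" are used for called genes. All 10 genes passed the filter on low counts in both lines. Between the untreated lines 7 of the 10 were called, all lower in A431, where 41.7% of 16669 genes tested were called in either direction and 20% as lower. The log2 difference, A431 minus MDA-MB-231, was -3.10 (SE 0.066) for CCN1, -7.22 (SE 0.091) for CCN2 and -9.34 (SE 0.19) for ANKRD1. AXL, a receptor tyrosine kinase, differed by -3.01 (SE 0.087), YAP1 by -1.72 (SE 0.054), LATS2 by -1.54 (SE 0.078) and TEAD1 by -1.21 (SE 0.059). WWTR1 missed the fold limit at -0.92 (SE 0.059), and it passed at -1.004 when libraries were scaled by size alone. AJUBA differed by -0.27 (SE 0.065). AMOTL2 was at 149.7, 142 and 163 CPM in A431 and 123, 158 and 152 CPM in MDA-MB-231, overlapping groups whose difference had a 95% interval of -0.056 to 0.23.

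**Figure D1:**
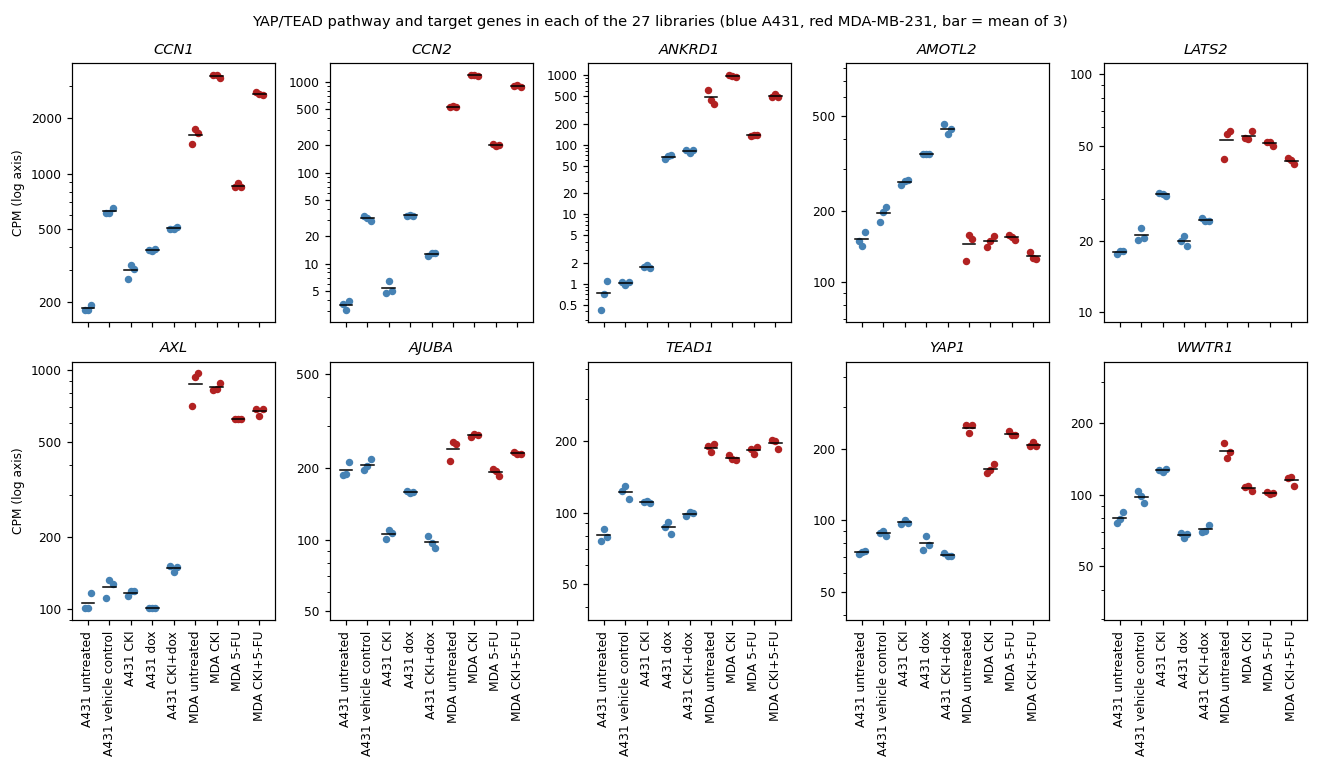
CPM of the 10 genes (log axis, one panel per gene) in each of the 27 libraries, A431 in blue and MDA-MB-231 in red, with a bar at the mean of 3. CCN2 and ANKRD1 lie lowest in untreated A431, at 3.55 and 0.736 CPM on average, and ANKRD1 stands at 67.5 CPM in A431 with doxorubicin.

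In A431 cells CKI raised ANKRD1 alone of the 10 past both limits, while doxorubicin raised CCN1, CCN2, ANKRD1 and AMOTL2. With CKI against untreated cells 1 of 10 was called, where 22.4% of 15881 genes tested were called and 12% as higher, and 9 of 10 passed the adjusted p alone (8 higher and 1 lower), against 67% of all genes. With doxorubicin 4 of 10 were called, all higher, where 37.3% of all genes were called and 23% as higher. With CKI plus doxorubicin 5 of 10 were called, 4 higher and AJUBA lower, against 35.5% of all genes, 21.7% called as higher and 13.8% as lower. These counts depended on the control group. With vehicle as the reference doxorubicin gave 1 of 10, ANKRD1, and CKI plus doxorubicin gave 4, of which ANKRD1 and AMOTL2 were higher and CCN2 and AJUBA lower, so that CCN2 was called in the opposite direction and CCN1 was not called. Of all 15881 genes, 6117 were called for doxorubicin against vehicle, 3771 of them higher. For CKI plus doxorubicin against vehicle 5296 were called, 3438 higher and 1858 lower. The vehicle control, compared with untreated cells, gave 2 of 10 called, CCN1 and CCN2, both higher, against 2.54% of all genes and 1.05% called as higher. CKI against vehicle gave 2 of 10, the same CCN1 and CCN2, both lower, against 19.5% of all genes and 8.22% called as lower. CKI plus doxorubicin against doxorubicin alone gave 1 of 10, CCN2, which was lower, against 14.9% of all genes and 8.03% called as lower. By the adjusted p alone, vehicle gave 8 higher and 0 lower (against 42.5% of all genes), CKI against vehicle 5 higher and 3 lower (against 65% of all genes), doxorubicin 5 higher and 2 lower (against 80.6% of all genes), CKI plus doxorubicin 7 higher and 2 lower (against 79.2% of all genes) and CKI plus doxorubicin against doxorubicin 6 higher and 3 lower (against 63.6% of all genes), so the doxorubicin count was below the share over all genes.

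In MDA-MB-231 cells CCN1, CCN2 and ANKRD1 rose with CKI, and CCN2 and ANKRD1 fell with 5-FU. CKI gave 3 of 10 called, all higher, where 5.96% of 13999 genes tested were called and 3.76% as higher. 5-FU gave 2 of 10, both lower, against 13.3% of all genes and 7.31% called as lower. The combination against untreated cells gave 0 of 10 called by edgeR, against 9.04% of all genes. In that comparison 6 of 10 had an unadjusted p below 0.05 and 6 of 10 an adjusted p below 0.05 (2 higher and 4 lower), against 49.7% of all genes, and DESeq2 also called 0. The combination against 5-FU alone gave 3 of 10, CCN1, CCN2 and ANKRD1, all higher, against 9.77% of all genes and 5.26% called as higher. By the adjusted p alone, CKI gave 4 higher and 2 lower (against 36.2% of all genes), 5-FU 0 higher and 6 lower (against 57.1% of all genes) and the combination against 5-FU 5 higher and 3 lower (against 50.4% of all genes). The same rule gave 1 higher and 8 lower (against 57.4% of all genes) for the A431 test of the CKI effect with and without doxorubicin, 6 higher and 0 lower (against 31.4% of all genes) for the MDA-MB-231 test with and without 5-FU and 5 higher and 3 lower (against 47% of all genes) for the difference of the CKI response between the lines.

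**Figure D2:**
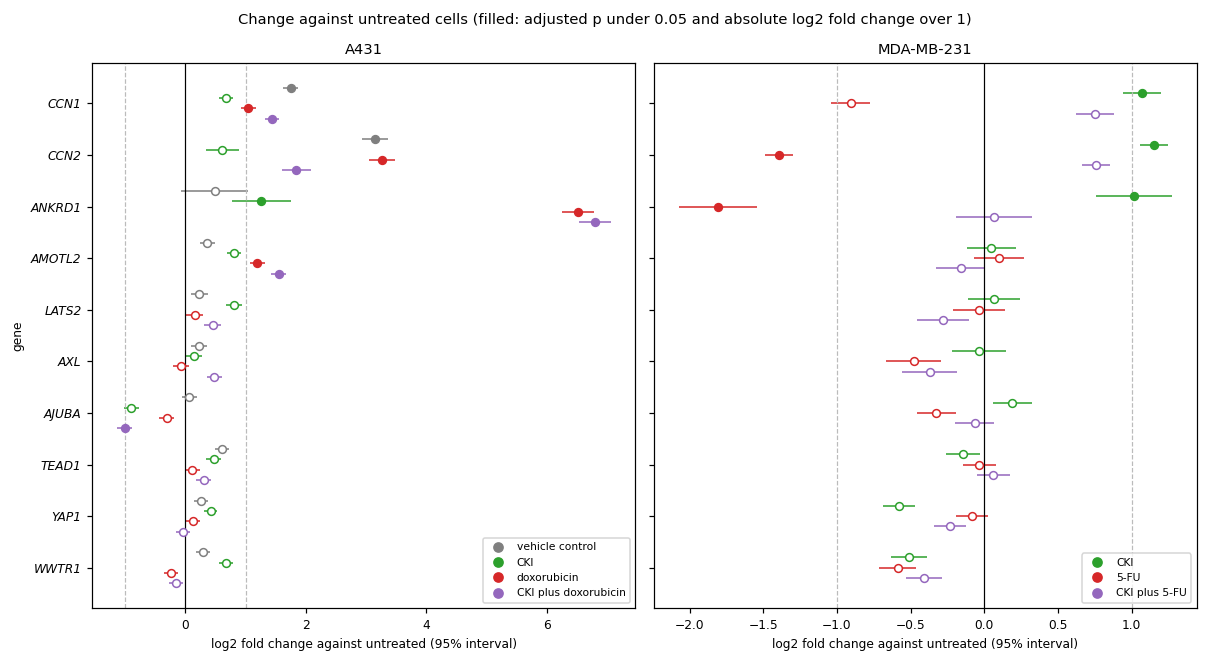
Log2 fold change against untreated cells of the same line (x axis) for each of the 10 genes (y axis), with 95% intervals, filled where called and with dashed lines at the fold limit. In A431 the changes of ANKRD1 with doxorubicin (6.52) and with CKI plus doxorubicin (6.80) lie far to the right, and in MDA-MB-231 the CKI and 5-FU points of CCN1, CCN2 and ANKRD1 lie on opposite sides of 0.

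The coactivators YAP1 and WWTR1 and their partner TEAD1 stayed short of the fold limit in every A431 comparison. YAP1 was at 72.3, 73.4 and 74.4 CPM in untreated A431 libraries, 96.6, 100.4 and 97.0 with CKI, 75.2, 86.1 and 79.0 with doxorubicin and 73.1, 70.7 and 70.6 with the combination. WWTR1 was at 75.8, 79.2 and 85.2 CPM in untreated A431, 128, 125 and 129 with CKI, 69.5, 65.6 and 68.6 with doxorubicin and 69.7, 70.7 and 74.4 with the combination. Both genes were highest with CKI, with no overlap with any other A431 group, and YAP1 of the combination overlapped untreated cells. The CKI change was 0.42 (SE 0.057, adjusted p = 8.5e-07) for YAP1 and 0.67 (SE 0.059, adjusted p = 8.3e-10) for WWTR1, each short of the fold limit, and against vehicle it was 0.15 (SE 0.057) and 0.37 (SE 0.059). With offsets for GC content and length the changes against untreated cells dropped to 0.18 (adjusted p = 0.0015) for YAP1 and 0.44 (adjusted p = 9.1e-10) for WWTR1. With doxorubicin WWTR1 changed by -0.24 (SE 0.060), a sign that turned to 0.11 when libraries were scaled by size alone, a scaling that moved the median of all genes from 0.0172 to 0.361 in this comparison. TEAD1, the DNA-binding partner, was at 75.7, 85.3 and 79.3 CPM in untreated A431, 123, 129 and 114 with vehicle, 111, 112 and 110.2 with CKI and 86.9, 91.4 and 81.5 with doxorubicin. The vehicle group was the highest for TEAD1, 0.61 (SE 0.062) above untreated or 0.33 with those offsets, and the CKI libraries, all below the vehicle libraries, differed from them by -0.14 (SE 0.061, adjusted p = 0.055).

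In MDA-MB-231 both coactivators were lower with CKI at the adjusted p alone. YAP1 was at 251, 233 and 251 CPM in untreated libraries, 158, 162 and 172 with CKI, 237, 228 and 229.5 with 5-FU and 206, 214 and 206 with CKI plus 5-FU. WWTR1 was at 165, 143 and 151 CPM in untreated libraries, 108, 109 and 104 with CKI, 103, 101 and 102 with 5-FU and 118, 119 and 109 with CKI plus 5-FU. The CKI libraries were the lowest of the line for YAP1, and every treated library lay below every untreated one for WWTR1. The CKI change was -0.58 (SE 0.055, adjusted p = 1.1e-05) for YAP1 and -0.51 (SE 0.063, adjusted p = 7.2e-05) for WWTR1, and that of 5-FU was -0.084 (SE 0.055) and -0.59 (SE 0.063), all short of the fold limit. TEAD1 stayed between 167 and 201 CPM in the 12 libraries, with a CKI change of -0.15 (SE 0.057, adjusted p = 0.067). WWTR1 shares 756 exonic bases with its antisense transcript WWTR1-AS1, which had 0 to 55 counts per library, and YAP1 shares 628 with an antisense transcript, and since the libraries were unstranded such reads cannot be told apart.

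The difference of the CKI response between the lines was itself tested over the untreated and CKI libraries. WWTR1 differed by 1.19 (SE 0.10, adjusted p = 1.1e-06) on the log2 scale, A431 response minus MDA-MB-231 response, and YAP1 by 1.004 (SE 0.091, adjusted p = 1.6e-06). AJUBA, a LIM protein that restrains LATS kinases, differed by -1.08 (SE 0.11, adjusted p = 4.7e-06) in the other direction. These were the 3 of 10 called, where 18.5% of 14848 genes tested were called, 8.87% as higher and 9.62% as lower. YAP1 stood at the fold limit and dropped to 0.75 with offsets for GC content and length, and to 0.98 without untreated MDA-MB-231 replicate 1, with 0.97 to 0.99 also without untreated MDA-MB-231 replicate 3, MDA-MB-231 CKI replicate 1, MDA-MB-231 CKI replicate 2 or A431 CKI replicate 2. WWTR1 dropped to 0.93 with the offsets and was 1.12 without that library. AJUBA lost its call at -0.93 without A431 untreated replicate 3 and at -0.95 without A431 CKI replicate 1, and narrowly at -0.99 with no filter on low counts and -0.98 with at least 10 counts in every library. With the A431 vehicle group in place of untreated A431, WWTR1 and YAP1 were at 0.89 and 0.74, no longer called, and CCN1 and CCN2 were called at -2.13 and -3.68 in place of -0.38 and -0.53.

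Among the target genes in A431, CCN1 was at 268, 321 and 306 CPM with CKI, 386, 379.7 and 389 with doxorubicin, 504, 499 and 513 with CKI plus doxorubicin and 609.8, 614 and 652 with vehicle, against 182 to 194 CPM in untreated cells. No group overlapped another, and the vehicle group was the highest of the 5. Against untreated cells CCN1 changed by 0.68 (SE 0.059, adjusted p = 6e-10) with CKI, 1.05 (SE 0.060, adjusted p = 2.2e-13) with doxorubicin and 1.44 (SE 0.060, adjusted p = 8.3e-16) with the combination. The vehicle alone raised it by 1.75 (SE 0.060, adjusted p = 6.5e-16), and with offsets for GC content and length that change was 1.76. Against vehicle the CKI group fell, with a log2 change of -1.07 (SE 0.059, adjusted p = 2.5e-13), and the changes with doxorubicin and with the combination were -0.70 and -0.31, both of opposite sign to those against untreated cells. The CKI call against vehicle was lost at -0.94 with the offsets, at -0.96 with library size alone and at -0.997 without CKI replicate 1. The doxorubicin call against untreated cells was lost at 0.87 with offsets for GC content and length and at 0.99 with no filter on low counts.

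CCN2 in A431 was at 4.75, 6.50 and 4.98 CPM with CKI, 33.6, 34.3 and 33.7 with doxorubicin, 12.1, 13.0 and 13.0 with CKI plus doxorubicin and 33.2, 31.5 and 29.8 with vehicle, against 3.64, 3.09 and 3.91 in untreated cells (56 to 62 counts per library). The doxorubicin and vehicle groups were high and close to each other, the combination lay between, and CKI and untreated were low. Against untreated cells CCN2 rose 9.58-fold with doxorubicin, a log2 change of 3.26 (SE 0.11, adjusted p = 1.8e-17), and 8.91-fold with vehicle, a log2 change of 3.15 (SE 0.11, adjusted p = 7.5e-16), or 3.19 with offsets for GC content and length. CKI changed it by 0.61 (SE 0.14, adjusted p = 0.0004) against untreated cells and by -2.54 (SE 0.10, adjusted p = 5.5e-16) against vehicle. The combination raised it by 1.84 (SE 0.12, adjusted p = 2.7e-12) against untreated cells, while against vehicle it was lower, at -1.31 (adjusted p = 5e-12). Added to doxorubicin, CKI lowered CCN2, with a log2 change of -1.42 (SE 0.087, adjusted p = 2.8e-12), with no overlap between the groups. The test of the difference between the CKI effects with and without doxorubicin gave -2.03 (SE 0.16, adjusted p = 3.9e-10) for CCN2, the single gene of the 10 called, where 19.5% of all genes were called and 10.9% as lower. With vehicle in place of untreated cells that value was 1.12, of opposite sign, and the doxorubicin change was 0.11 (adjusted p = 0.23). CCN2 shares 278 exonic bases with the antisense transcript LINC01013, which had 0 to 6 counts in any library.

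ANKRD1 in A431 separated doxorubicin from everything else. It was at 1.74, 1.84 and 1.69 CPM with CKI, 61.5, 69.8 and 71.1 with doxorubicin, 84.2, 76.9 and 84.6 with CKI plus doxorubicin and 1.06, 0.970 and 1.05 with vehicle. The vehicle libraries overlapped the untreated ones, and both doxorubicin groups lay far above the rest. The log2 change was 6.52 (SE 0.14, adjusted p = 5.6e-21) with doxorubicin and 6.80 (SE 0.13, adjusted p = 3.8e-21) with the combination, and CKI added 0.28 (SE 0.072, adjusted p = 0.0018) to doxorubicin. Against vehicle these 2 groups remained called, at 6.03 and 6.31. CKI alone gave 1.26 (SE 0.25, adjusted p = 9.9e-05), a call that rested on 7 to 17 counts per untreated library and was lost at 0.99 without untreated replicate 1, and against vehicle CKI gave 0.77 (SE 0.22, adjusted p = 0.0043), which passed the fold limit at 1.05 with offsets for GC content and length.

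**Figure D3:**
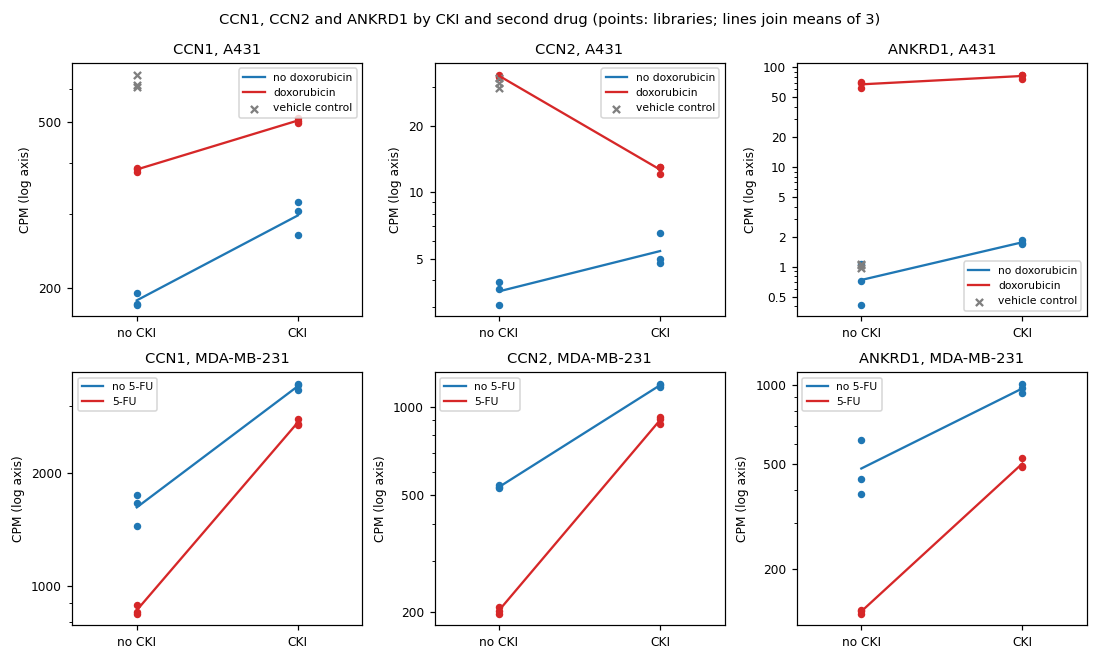
CPM (log axis) of CCN1, CCN2 and ANKRD1 without and with CKI (x axis), in A431 by doxorubicin (top) and in MDA-MB-231 by 5-FU (bottom), with points for libraries, lines joining means of 3 and crosses for the A431 vehicle control. The A431 lines for CCN2 run in opposite directions, from 3.55 to 5.41 CPM without doxorubicin and from 33.9 to 12.7 CPM with it, and all MDA-MB-231 lines run upward.

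In MDA-MB-231 the same 3 genes ordered the groups alike, with 5-FU lowest and CKI highest. CCN1 was at 3446, 3418 and 3316 CPM with CKI, 844, 891 and 849.6 with 5-FU and 2777, 2698 and 2683 with CKI plus 5-FU, against 1444, 1742 and 1664 in untreated cells. CCN2 was at 1188, 1201 and 1171 CPM with CKI, 209, 198 and 203 with 5-FU and 911, 924 and 874 with the combination. None of the 4 groups overlapped for either gene. ANKRD1 was at 1015, 973 and 932 CPM with CKI, 135, 139 and 139 with 5-FU and 487, 529 and 493 with the combination, which overlapped the untreated group. Its untreated libraries were the most scattered, with replicate 1 the highest.

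CKI raised CCN1 by 1.07 (SE 0.066, adjusted p = 3.5e-07), CCN2 by 1.15 (SE 0.048, adjusted p = 1.1e-08) and ANKRD1 by 1.01 (SE 0.13, adjusted p = 0.00011) on the log2 scale. Of these, CCN2 was called with every library left out in turn. CCN1 was at 0.99 without untreated replicate 1, and ANKRD1 at 0.95 without untreated replicate 2, 0.88 without untreated replicate 3 and 0.98 without CKI replicate 1, all with adjusted p below 0.05. With 5-FU the log2 change was -1.39 (SE 0.048, adjusted p = 1.7e-09) for CCN2 and -1.81 (SE 0.14, adjusted p = 4.9e-07) for ANKRD1, and CCN1 changed by -0.91 (SE 0.066, adjusted p = 4e-07), short of the limit. CKI on top of 5-FU raised CCN1 by 1.66 (SE 0.067, adjusted p = 1e-08), CCN2 by 2.15 (SE 0.049, adjusted p = 1.9e-10) and ANKRD1 by 1.87 (SE 0.14, adjusted p = 7e-07). Against untreated cells the combination gave 0.75 (SE 0.066), 0.76 (SE 0.047) and 0.063 (SE 0.13), with an ANKRD1 interval of -0.19 to 0.32. On the log2 scale the CKI effect was greater in the presence of 5-FU for CCN2 by 1.00 (SE 0.067, adjusted p = 2.6e-06), the single gene of the 10 called, where 6.84% of all genes were called and 3.04% as higher. That value stood at the fold limit, with 0.99 under the size factors of DESeq2, 0.94 with library size alone, 0.99 with at least 10 counts in every library, and 0.982 to 0.998 without untreated replicate 2, CKI replicate 3, 5-FU replicate 2, 5-FU replicate 3, combination replicate 1 or combination replicate 2, none of which kept the call. The same difference was 0.59 (SE 0.093, adjusted p = 0.00065) for CCN1, 0.86 (SE 0.19, adjusted p = 0.0046) for ANKRD1 and 0.69 (SE 0.089, adjusted p = 0.00018) for WWTR1. These values compare ratios, and the 5-FU starting levels were lower. Mean CCN2 went with CKI from 534 to 1187 CPM without 5-FU and from 203 to 903 CPM with it. Mean ANKRD1 went from 482 to 973 CPM and from 138 to 503 CPM, a smaller rise in CPM with 5-FU.

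The feedback genes AMOTL2 and LATS2 were higher with CKI at the adjusted p alone in A431 and not in MDA-MB-231. AMOTL2, an angiomotin that holds YAP at cell junctions, was at 257, 266 and 271 CPM with CKI, 345, 348 and 347 with doxorubicin, 465, 422 and 442 with CKI plus doxorubicin and 179, 198 and 207 with vehicle in A431. No 2 of the 5 A431 groups overlapped, and the order ran from untreated to the combination. Its change was 0.80 (SE 0.062, adjusted p = 6.7e-11) with CKI, 1.19 (SE 0.062, adjusted p = 4.6e-14) with doxorubicin and 1.55 (SE 0.062, adjusted p = 4.9e-16) with the combination. Against vehicle the CKI change was 0.44 and the doxorubicin change 0.83, both below the fold limit. In MDA-MB-231 AMOTL2 stayed at 123 to 158 CPM in all 12 libraries, with a CKI interval of -0.12 to 0.21 and a 5-FU interval of -0.068 to 0.27. The CKI responses of the lines differed by 0.76 (SE 0.13, adjusted p = 0.00025) for AMOTL2, short of the fold limit, or by 0.40 with vehicle as the A431 control. LATS2, the kinase that phosphorylates YAP and TAZ, was at 17.5, 18.1 and 18.1 CPM in untreated A431, 31.6, 31.5 and 30.8 with CKI, 20.0, 21.0 and 19.0 with doxorubicin and 25.0, 24.3 and 24.3 with the combination. Its CKI libraries were the highest of the line and did not overlap any other group, with a change of 0.81 (SE 0.070, adjusted p = 5.5e-10), or 0.57 (SE 0.068) against vehicle. In MDA-MB-231 LATS2 ranged from 42.2 to 58.1 CPM and the CKI change was 0.064 (SE 0.090). Its CKI responses differed between the lines by 0.75 (SE 0.13, adjusted p = 0.00036), also short of the fold limit.

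AJUBA was the 1 gene of the 10 that was lower with CKI than in untreated A431 at the adjusted p alone. It was at 188, 189 and 213 CPM in untreated A431, 196, 204 and 218 with vehicle, 100.3, 109.9 and 107 with CKI, 161, 157 and 158 with doxorubicin and 104, 96.6 and 92.3 with the combination. Both groups given CKI overlapped each other and lay below every other A431 library. Against vehicle 3 of the 10 were lower with CKI at the adjusted p alone, CCN1, CCN2 and AJUBA. The AJUBA change there was -0.96 (SE 0.064, adjusted p = 5.8e-12). Against untreated cells the log2 change of AJUBA was -0.90 (SE 0.064, adjusted p = 1.6e-11) with CKI and -1.01 (SE 0.064, adjusted p = 1.5e-12) with CKI plus doxorubicin, of which the second was called but fell short in 7 alternatives. It was -0.93 with the size factors of DESeq2 in edgeR, -0.93 with DESeq2 itself, -0.70 with library size alone, -0.88 with at least 10 counts in every library, -0.93 with the compared groups alone, and -0.96 or -0.98 without replicate 3 of the untreated or of the combined group. In MDA-MB-231 AJUBA was at 214, 257 and 252 CPM in untreated cells and 270.2, 279 and 275 with CKI, a change of 0.19 (SE 0.068, adjusted p = 0.046).

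AXL stayed short of the fold limit in every comparison within a line. In A431 it was at 101, 101 and 116 CPM in untreated cells, 114, 119 and 118 with CKI, 101, 101 and 101 with doxorubicin and 151, 143 and 149.7 with CKI plus doxorubicin. The combination lay above every other A431 library, with a change of 0.48 (SE 0.066, adjusted p = 7.2e-07) against untreated cells, 0.80 with library size alone and 0.26 against vehicle. In MDA-MB-231 it was at 706, 930.5 and 965 CPM in untreated cells, 825, 833 and 882 with CKI, 622, 624 and 621 with 5-FU and 686, 641 and 685 with CKI plus 5-FU. The untreated group was widely spread, with replicate 1 the lowest, and the 5-FU libraries lay below it, with a change of -0.48 (SE 0.095, adjusted p = 0.00098). A change in RNA per cell and a change in the share of cells expressing a gene cannot be told apart in these bulk libraries.

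Other genes of the pathway were read from lists that do not include the 10. Between the untreated lines, where 21.7% of all genes were called as higher and 20% as lower in A431, 1 of 14 Hippo kinase module genes was higher and 4 were lower, 2 of 6 other TEAD and VGLL genes were higher and 1 was lower, 1 of 5 other junctional inhibitors was higher and 3 were lower, and 1 of 16 other reported targets was higher and 6 were lower. Of 14 Hippo kinase module genes, all of them tested in both lines, CKI in A431 raised 2 against untreated cells, FRMD6 (1.11, SE 0.057) and STK3 (1.05, SE 0.079), the latter encoding the kinase MST2, with a list median of 0.53 against 0.0028 over all genes, of which 12% were called as higher and 10.4% as lower. CKI against vehicle called 0 of the 14, against 19.5% of all genes, with a list median of 0.13. Vehicle against untreated cells had a list median of 0.40, with 12 of the 14 higher at the adjusted p alone, against 42.5% of all genes. With doxorubicin 1 of the 14 fell, NF2, the tumour suppressor merlin, at -1.40 (SE 0.073), where 14.3% of all genes were called as lower. In MDA-MB-231 none of the 14 was called by edgeR with CKI, against 5.96% of all genes, where 9 had an unadjusted p below 0.05, and the list median was -0.016. At the adjusted p alone 4 of the 14 were higher and 4 lower, against 36.2% of all genes. Of 7 other TEAD and VGLL genes, VGLL3, which competes with YAP for TEAD proteins, rose with CKI in both lines, by 1.94 (SE 0.067) in A431 and 1.67 (SE 0.086) in MDA-MB-231. It also rose with doxorubicin (1.34, SE 0.068), with 5-FU (1.03, SE 0.087), with CKI plus doxorubicin (2.60, SE 0.066) and with CKI plus 5-FU (1.59, SE 0.086), where 23%, 6.01%, 21.7% and 4.29% of all genes were called as higher. TEAD4 fell with CKI in A431, at -1.58 (SE 0.11), and VGLL1 rose by 1.12 (SE 0.12), and in MDA-MB-231 VGLL3 was the 1 gene called of the 5 tested with CKI, against 5.96% of all genes. Among 5 other junctional inhibitors, WTIP, a relative of AJUBA, rose with doxorubicin by 1.94 (SE 0.28) and PTPN14 with CKI in A431 by 1.43 (SE 0.060). Each was the 1 gene of 5 called against untreated cells, where 23% and 12% of all genes were called as higher. CKI against vehicle called 0 of the 5, against 19.5% of all genes.

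The 16 further genes reported elsewhere as YAP and TEAD targets, all tested in both lines, moved in both directions. With CKI in A431 against untreated cells 3 of 16 rose and 3 fell, against 12% and 10.4% of all genes, with a median of 0.37. The largest were PTPN14 (1.43, SE 0.060), which is also among the junctional inhibitors, the ectonucleotidase NT5E (1.21, SE 0.062), the growth factor carrier IGFBP3 (-1.72, SE 0.061) and the kinase NUAK2 (-1.44, SE 0.11). CKI against vehicle gave 0 higher and 2 lower, against 11.3% and 8.22% of all genes, with a median of -0.031. The median of vehicle against untreated cells was 0.33. With doxorubicin 1 rose, NUAK2 (1.16, SE 0.092), and 3 fell, led by FJX1 (-1.90, SE 0.13) and IGFBP3 (-1.88, SE 0.061), against 23% and 14.3% of all genes, with a median of 0.088. With vehicle 2 rose, GADD45A (1.17, SE 0.058) and NUAK2 (1.005, SE 0.093), against 1.05% of all genes. In MDA-MB-231 CKI gave 0 of 16 called by edgeR, against 5.96% of all genes, where 11 had an unadjusted p below 0.05. At the adjusted p alone 2 of the 16 were higher and 9 lower, against 36.2% of all genes, and the median was -0.24. 5-FU gave 1 higher and 4 lower, led by TGFB2 (-1.60, SE 0.062) and CRIM1 (-1.41, SE 0.082), against 6.01% and 7.31% of all genes, with a median of -0.78 against -0.40 for the 10 genes and -0.0037 over all genes. The CKI median of the 10 genes in MDA-MB-231 was 0.056.

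**Figure D4:**
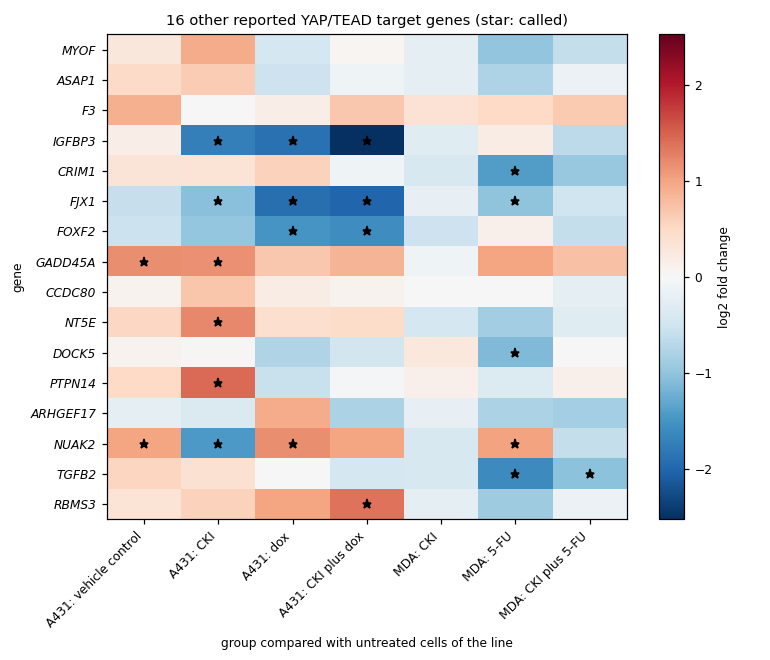
Log2 fold change (colour) of 16 other reported target genes (rows) in each treated group against untreated cells of its line (columns), starred where called. The columns mix colours in A431, with IGFBP3 at -2.52 in CKI plus doxorubicin, and the MDA-MB-231 CKI column has no star.

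A second set of actin-linked genes, 10 targets of SRF and its MRTF coactivators, was read because CCN1 and CCN2 are targets of SRF as well. Of 9 tested in A431, 4 rose with doxorubicin, led by the smooth muscle genes TAGLN (2.47, SE 0.14) and TPM1 (2.07, SE 0.055), and the list median was 0.88 against 0.0172 over all genes, of which 23% were called as higher. CKI raised ACTA2 (1.39, SE 0.25) and TAGLN (1.25, SE 0.16), 2 of 9 against 12% of all genes, and CKI plus doxorubicin raised 4, led by TAGLN (2.82, SE 0.14) and TPM1 (1.39, SE 0.054), against 21.7% of all genes. With vehicle edgeR called 0 of 9, against 2.54% of all genes, where 5 had an unadjusted p below 0.05, and the median was 0.040. At the adjusted p alone 4 of the 9 were higher and 1 lower, against 42.5% of all genes. In MDA-MB-231 CKI also gave 0 of 10, against 5.96% of all genes, with 3 at an unadjusted p below 0.05. At the adjusted p alone 3 of the 10 were higher and 0 lower, against 36.2% of all genes. There 5-FU raised CNN1 (2.93, SE 0.49), 1 of 10, against 6.01% of all genes called as higher. At the adjusted p alone 1 of the 10 was higher and 5 were lower with 5-FU, against 57.1% of all genes, and the median was -0.17. The combination lowered CNN1 against 5-FU, at -3.35 (SE 0.52), 1 of 10, against 4.51% of all genes called as lower. In that comparison 4 of the 10 were higher and 1 was lower at the adjusted p alone, against 50.4% of all genes, and the median was 0.17.

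Genes with the pattern most like CCN1 and CCN2 were taken as those of highest Pearson correlation of log2 CPM within a line, among genes of at least 5 CPM on average. Over the 15 A431 libraries, which share treatment groups, the nearest to CCN1 of 10938 genes were INHBA (r = 0.955), IL36G (0.946), TNFAIP3 (0.926), ZNF770 (0.924) and CDK12 (0.908). Nearest to CCN2 were ZNF473 (0.964), PMAIP1 (0.927), CEBPZ (0.921), ZNF543 (0.913) and ZNF256 (0.897). Over the 12 MDA-MB-231 libraries and 10763 genes, CCN2 itself was the nearest to CCN1 (0.992), followed by GMPR (0.991), ARMC9 (0.991), NMT2 (0.989) and MAPRE3 (0.989). Nearest to CCN2 there was ARMC9 (0.992), followed by CCN1 (0.992), SLC33A1 (0.989), ARHGEF12 (0.988) and MT1X (0.988). In A431 CCN1 and CCN2 correlated at 0.817, and ANKRD1 and AMOTL2 at 0.919.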

How the data were processed

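Total RNA of A431 and MDA-MB-231 cells was sequenced as unstranded paired-end libraries (NEBNext Ultra kit), 3 per group. The deposited table held unnormalised read counts for each Entrez gene. Per the labels and processing notes, reads were trimmed with Trim Galore 0.3.7 and aligned with STAR 2.5.3a to hg19; the counting program and its annotation were not given in the sources used here. Entrez identifiers were matched to symbols with RefSeq gene names, 24422 of 24566 rows. All 27 columns matched a sample.

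Counts of each line were fitted together in edgeR 4.0.16 (R 4.3.3, limma 3.58.1) with TMM factors, the default filter on low counts and the quasi-likelihood F-test, with Benjamini-Hochberg adjustment over all genes tested. Both thresholds, adjusted p below 0.05 and log2 fold change above 1 in size, are those of the study. The lines were compared in a fit of all 27 libraries, and their CKI responses in a fit of 12. SE was the log2 fold change divided by the root of F, and 95% intervals were 1.96 SE either side. CPM were TMM-scaled, log2 CPM used a prior count of 2, and CPM per kilobase used GRCh37 exon lengths. The fitting code was tested on simulated counts.

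All 10 genes are named. From other lists the 2 called genes of largest change in each direction per comparison could be named, and for CCN1 and CCN2 the 5 genes of most similar pattern. The 10 genes and all lists were chosen with earlier results of these data known. Same-numbered replicates did not deviate together (mean r -0.135 to 0.062), so no pairing was used. Alternatives were RLE factors (those of DESeq2), library size alone, DESeq2 1.42.0, other filters, the compared groups alone, adjusted p alone, lowess offsets (span 0.3) for GC content and length, a replicate block, the vehicle control, and leaving out each library.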

Additional observations from a re-analysis of the deposited data

Results flagged for a closer look

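The following 5 differences between responses were called by the test of the difference itself. The CKI change of CCN2 in A431 was 0.61 against untreated cells, short of the fold limit, and -1.42 on top of doxorubicin. The difference was -2.03 (SE 0.16, adjusted p = 3.9e-10). With the vehicle control as the reference both CKI changes were downward, -2.54 and -1.42, and the difference was 1.12. In MDA-MB-231 the CKI response of CCN2 was greater with 5-FU by 1.00 on the log2 scale (SE 0.067, adjusted p = 2.6e-06), at the fold limit. Between the lines, A431 minus MDA-MB-231, the CKI response of AJUBA differed by -1.08 (SE 0.11, adjusted p = 4.7e-06), that of YAP1 by 1.004 (SE 0.091, adjusted p = 1.6e-06) and that of WWTR1 by 1.19 (SE 0.10, adjusted p = 1.1e-06). AJUBA was lower with CKI in 3 of 3 A431 libraries and higher in 3 of 3 MDA-MB-231 libraries than any untreated library of the line, and YAP1 and WWTR1 were higher in 3 of 3 A431 libraries and lower in 3 of 3 MDA-MB-231 libraries. Such separation was common, at 9 of the 10 genes in A431 and 7 in MDA-MB-231, and was not counted over all genes. Of 22 alternatives, including adjusted p alone, the call was kept in 18 for AJUBA, 14 for YAP1 and 19 for WWTR1. With the A431 vehicle as control YAP1 was at 0.74 and WWTR1 at 0.89, neither called.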

How the results depend on the processing

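With the adjusted p alone and no fold limit, the counts of the 10 genes called, each beside the share of all genes, were 8 (42.5%) for vehicle, 9 (67%) for CKI, 8 (65%) for CKI against vehicle, 7 (80.6%) for doxorubicin, 9 (79.2%) for CKI plus doxorubicin and 9 (63.6%) against doxorubicin in A431, 6 each for CKI (36.2%), 5-FU (57.1%) and CKI plus 5-FU (49.7%) and 8 (50.4%) against 5-FU in MDA-MB-231, 9 (57.4%) and 6 (31.4%) for the tests of the CKI effect with and without doxorubicin or 5-FU, and 8 (47%) for the difference between the lines. With at least 10 counts in every library, ANKRD1 had too few counts in A431 and gave no value, and the counts were 0 for CKI and 3 for CKI plus doxorubicin in A431, where AJUBA also lost its call. Of 12485 genes tested under that filter, 2469 and 3100 were called in these comparisons. CKI against vehicle gave 1 with library size alone (3139 of 15881 genes), and doxorubicin against vehicle gave 1 (6117 of 15881 genes). The A431 test of the CKI effect with and without doxorubicin gave 2, both lower, with RLE factors, library size alone, DESeq2, or offsets for GC content and length without or with the block, since ANKRD1 passed the fold limit there (-1.02 with RLE factors), and 2, both higher, with vehicle. Of 15881 genes, these settings in turn called 1828, 2091, 1785, 1711 and 1689 as lower, and vehicle called 1391 as higher. The MDA-MB-231 test gave 0 with RLE factors, library size alone, DESeq2, the stricter filter or the replicate block. Over all genes the stricter filter called 734 of 12552, and the other settings in turn called 952, 979, 970 and 911 of 13999. The difference between the lines gave 1 with the offsets, without or with the block, where 2456 and 2453 of 14848 genes were called. Leaving out 1 library at a time gave 0 to 1 for CKI, 1 to 3 for CKI against vehicle, 4 to 5 for CKI plus doxorubicin and 1 to 2 for the A431 test with and without doxorubicin, 2 to 3 for CKI and 0 to 1 for the test with and without 5-FU in MDA-MB-231, and 2 to 3 for the difference between the lines. Over all genes, in the same order, these fits called 3457 to 3605, 3015 to 3221, 5751 to 5925 and 2989 to 3168 of 16192 to 16349 genes in A431. In MDA-MB-231 they called 801 to 926 and 850 to 1086 of 14156 to 14193. For the difference between the lines they called 2646 to 2953 of 15056 to 15146. ANKRD1 was -1.32 in the A431 test without untreated replicate 3.

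The replicate numbers of the labels did not pair the samples, and a fit with the replicate block moved 1 count, that of the MDA-MB-231 test with and without 5-FU, where CCN2 stood at 0.999967; it changed no other call. The compared groups alone could not differ from the full fit for the MDA-MB-231 test and the difference between the lines, and were not run there.

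Values that changed sign were mostly small. With vehicle in place of untreated A431, doxorubicin gave CCN1 -0.70, LATS2 -0.076, TEAD1 -0.50 and YAP1 -0.14, CKI plus doxorubicin gave CCN1 -0.31, CCN2 -1.31 and TEAD1 -0.30, the test with and without doxorubicin gave CCN1 1.46, CCN2 1.12 and TEAD1 0.33, and the difference between the lines gave ANKRD1 -0.23 and AXL -0.037. With library size alone, AXL was 0.034 for CKI against vehicle and 0.28 for doxorubicin, where AJUBA was 0.035 and WWTR1 0.11; CKI plus doxorubicin gave YAP1 0.28 and WWTR1 0.15; in MDA-MB-231 AXL was 0.035 for CKI, LATS2 0.093, TEAD1 0.10 and YAP1 0.046 for 5-FU, and AJUBA 0.079 for the combination. AXL with doxorubicin and YAP1 with CKI plus doxorubicin were 0.018 and 0.039 with RLE factors, 0.018 and 0.039 with DESeq2, 0.10 and 0.089 with the stricter filter, and 0.012 and 0.038 with the compared groups alone. With offsets for GC content and length, without and then with the block, TEAD1 was -0.024 and -0.023 and YAP1 -0.019 and -0.020 with doxorubicin, WWTR1 -0.036 and -0.036 with CKI plus doxorubicin against doxorubicin, and LATS2 0.0078 and 0.010 with 5-FU. For CKI plus 5-FU the same offsets gave ANKRD1 -0.072 and -0.069, AMOTL2 0.0091 and 0.0091, AJUBA 0.031 and 0.031, and TEAD1 -0.016 and -0.016, and between the untreated lines AMOTL2 -0.043 and -0.044. Leaving out 1 library at a time gave -0.056 to 0.12 for AMOTL2, -0.049 to 0.13 for LATS2 and -0.16 to 0.047 for AXL with CKI in MDA-MB-231, -0.0043 to 0.17 for AMOTL2 and -0.15 to 0.031 for LATS2 with 5-FU, -0.076 to 0.29 for ANKRD1 with the combination, and -0.016 to 0.15 for AMOTL2 between the lines. The cause of these changes was not tested.

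Over all genes, library size alone raised the share of calls that were higher from 61.6% to 78.3% for doxorubicin, 61.2% to 77.5% for CKI plus doxorubicin, 45.1% to 59.8% for 5-FU and 47.4% to 62.7% for CKI plus 5-FU, and lowered it from 44% to 33% for the A431 test with and without doxorubicin; the offsets moved it from 41.1% to 60.7% for vehicle. Called genes numbered 404 for vehicle, against 247 with the offsets and 174 with the stricter filter, which also gave 3197 in place of 5925 for doxorubicin and 3100 in place of 5633 for CKI plus doxorubicin. Depth limits mainly ANKRD1 and CCN2 in untreated A431, which rested on 7 to 17 and 56 to 62 counts.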
